A study of Amorphotheca resinae with 20 samples.

Results

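Of 18830 gene identifiers of the filamentous fungus Amorphotheca resinae ZN1, 17 were at a higher level with both acetic acid and formic acid and had their largest change of any inhibitor with one of these acids. They were chosen on measured values. For each of 7 inhibitors, the mean level of the treated libraries plus 1 CPM (counts scaled to a library total of 1000000) was divided by the mean of the inhibitor's own control plus 1, and the log2 of this ratio was taken. A gene was kept when the ratio was at least 1.5 on the log2 scale with each acid and the largest of the 7 in size was for an acid. The ratios to the controls therefore describe the 17 genes and test nothing about them.

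The libraries came from wild-type mycelia of the ZN1 strain, grown at 28 °C in a potato-dextrose medium and collected at 4 h, with 2 libraries in each of 10 groups. In the weak acid experiment, mycelia received acetic acid at 2.0 g/L (33.3 mmol/L) or formic acid at 4.0 g/L (86.9 mmol/L), or neither in the weak acid control. The furan experiment held furfural and 5-hydroxymethylfurfural (HMF), each at 1.0 g/L, and a furan control. In the third, the phenolic aldehydes vanillin, 4-hydroxybenzaldehyde or syringaldehyde were added at 0.1 g/L each, beside an untreated phenolic aldehyde control. Each experiment had its own control, and the acids were given at different doses. The labels do not say whether the 2 libraries of a group came from separate cultures, so p-values measure the spread between these libraries, which may be technical. In these bulk samples, a change in the make-up of the mycelium and a change in RNA per cell cannot be told apart.

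Acetic and formic acids are released when plant biomass is pretreated, and A. resinae is known for consuming such inhibitors. In fungi, the uncharged form of a weak acid crosses the plasma membrane and gives up its proton in the less acidic cytosol. Yeasts such as Saccharomyces cerevisiae meet this load with a proton-pumping ATPase of the plasma membrane and with exporters of the acid anion. Acetate can be built into acetyl-CoA, and formate can be oxidised to carbon dioxide by formate dehydrogenase. No gene names or products come with the identifiers in the files, and 0 of them matched a reference table of 9642 genes from another A. resinae strain. Which of these functions, if any, the 17 genes carry is therefore not known, and the genes are given by identifier only. For the same reason the label mycelia could not be checked against marker genes.

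The libraries held 11601181 to 26106956 counts, and those of the weak acid experiment 16430097 to 20189482. All 17 genes passed the filter on low counts in every experiment. The most thinly covered in the weak acid control, ARZ_6462_T1, had 30 and 39 reads there.

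ARZ_6462_T1 stood furthest from its control under both acids. It was at 40.4 and 41.9 CPM with acetic acid and 353 and 426 CPM with formic acid, against 1.64 and 1.98 CPM in the weak acid control. The groups did not overlap, and the ratio of mean levels was 22.7 for acetic acid and 215 for formic acid. ARZ_11879_T1 came next by the smaller of its ratios. Its levels were 132 and 178 CPM with acetic acid and 146 and 141 CPM with formic acid, against 20.5 and 16.9 CPM in the control. Here the libraries of the acids lay among each other and all were far above the control. For all 17 genes the 4 acid libraries were above both weak acid control libraries, a pattern seen in 20.3% of the 16714 genes tested in this experiment; the rule fixes most of this count.

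**Figure D1:**
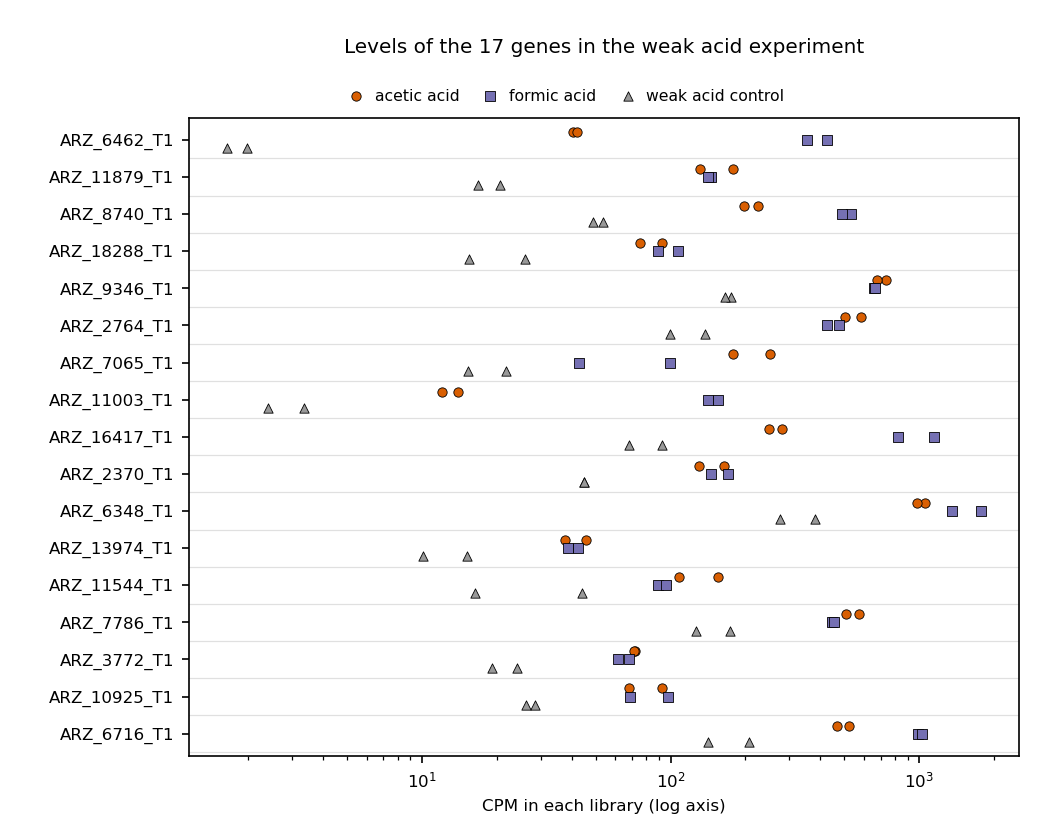
Levels of the 17 genes in CPM (log axis) in each library of acetic acid (circles), formic acid (squares) and the weak acid control (triangles), with genes ordered by the smaller of their ratios to the control. All 17 genes have every acid library to the right of both control libraries, and ARZ_6462_T1 and ARZ_11003_T1 also show a wide gap between the acids.

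In a fit of all genes (edgeR's quasi-likelihood test with Benjamini-Hochberg adjustment, called at an adjusted p under 0.05), 17 of the 17 genes were called higher with acetic acid than in the control, beside 19.7% of all genes tested. With formic acid 16 were called higher, beside 20.9%. The gene not called was ARZ_11544_T1. It was at 108 and 155 CPM with acetic acid and 88.9 and 95.8 CPM with formic acid, against 16.3 and 44.1 CPM in the control. Its control libraries differed by a ratio of 2.70, the widest of any of the 17 genes in the weak acid experiment. Its adjusted p was 0.0497 with acetic acid and 0.0828 with formic acid (edgeR quasi-likelihood), and the acetic acid call was lost without acetic acid replicate 1 (adjusted p = 0.0913) or replicate 2 (adjusted p = 0.182). It was also lost with no filter on low counts (edgeR adjusted p = 0.0761) and when only the 2 groups compared were fitted (0.0765). DESeq2 called it higher with formic acid as well, as it did all 17 genes. The share of all genes that DESeq2 called is not given here, so this count adds no support. Since the rule used both of these contrasts, the counts show no more than how firmly each chosen gene stands on its 2 libraries.

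The difference between the acids was not itself part of the rule, though it rests on the same libraries. The rule did use the ratios of both acids to the control. Genes chosen for large ratios may differ more between the acids than all genes do, so the shares are a description. Of the 17 genes, 6 were lower with acetic acid than with formic acid (35.3%, against 13.3% of all genes called lower) and 0 were called higher (against 11.8% of all genes). The other 11 were not called. DESeq2 called 1 of the 17, ARZ_7065_T1, higher with acetic acid, and it was also the 1 gene higher at an unadjusted edgeR p under 0.05. The median log2 difference over the 17 genes, acetic acid minus formic acid, was −0.12, beside 0.01 over all genes. As the doses differed, these are differences between the treatments as given.

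ARZ_11003_T1 had the largest difference in size. It was at 12.1 and 14.0 CPM with acetic acid and 141 and 155 CPM with formic acid, with 2.41 and 3.36 CPM in the control. The libraries of the acids were far apart, with a log2 difference of −3.58 ± 0.17 (SE; 95% interval −3.93 to −3.23). For ARZ_6462_T1 the log2 difference was −3.32 ± 0.16 (−3.65 to −2.98), so that its level with formic acid was 9.96 times that with acetic acid. Adjusted p-values were 1.85e-10 for ARZ_11003_T1 and 2.22e-10 for ARZ_6462_T1 (edgeR quasi-likelihood).

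The others of the 6 differed by less. ARZ_16417_T1 was at 279.9 and 248 CPM with acetic acid and 818 and 1145 CPM with formic acid, against 67.7 and 92.6 CPM in the control. Its log2 difference between the acids was −1.97 ± 0.20. ARZ_8740_T1 was at 196 and 224 CPM with acetic acid and 532 and 488 CPM with formic acid, against 48.9 and 53.5 CPM in the control, a log2 difference of −1.35 ± 0.15. Both genes thus formed 3 separate steps, from control to acetic acid to formic acid. ARZ_6716_T1 was at 468 and 523 CPM with acetic acid and 991 and 1028 CPM with formic acid, against 141 and 208 CPM in the control, a log2 difference of −1.10 ± 0.18. ARZ_6348_T1, the gene with the most reads of the 17, was at 1057 and 977 CPM with acetic acid and 1355 and 1767 CPM with formic acid, against 276 and 381 CPM in the control. Its log2 difference was −0.69 ± 0.19 (edgeR quasi-likelihood adjusted p = 0.0137), and the call was lost without acetic acid replicate 2 (adjusted p = 0.0850) or formic acid replicate 2 (adjusted p = 0.247). The calls of the other 5 genes held in all 10 alternatives tried, with edgeR or DESeq2 adjusted p-values of at most 0.0141.

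**Figure D2:**
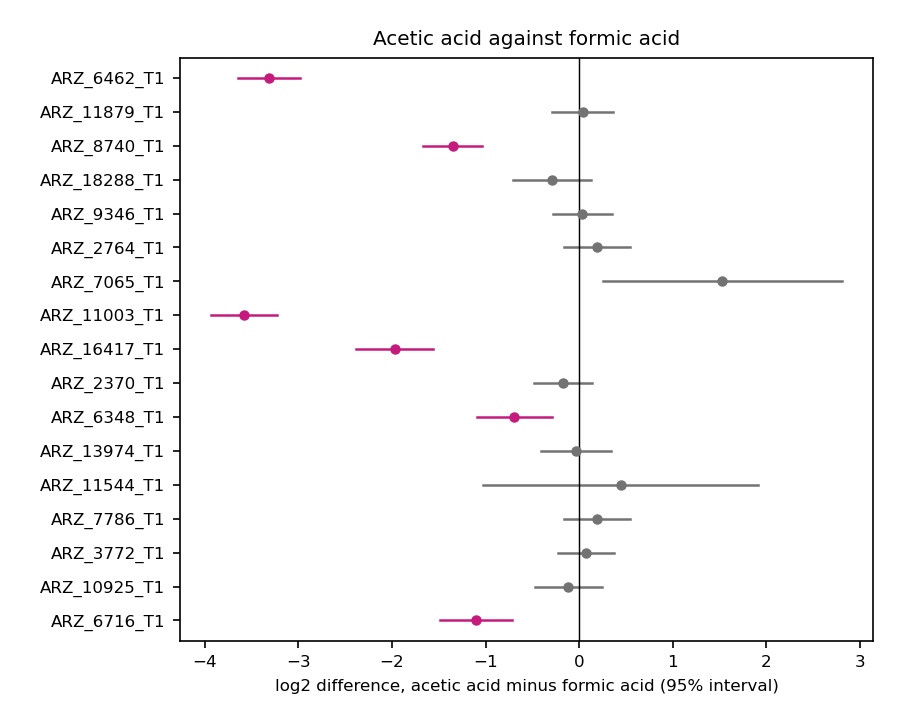
Log2 difference between acetic acid and formic acid for each of the 17 genes (points) with its 95% interval (lines), coloured where the adjusted p is under 0.05 and grey elsewhere. The 6 coloured genes all lie left of 0, from −3.58 for ARZ_11003_T1 to −0.69 for ARZ_6348_T1.

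Of the 11 genes not called between the acids, 9 had a 95% interval that stayed within 2-fold either way. One of them was ARZ_9346_T1, at 738 and 679 CPM with acetic acid and 656 and 661 CPM with formic acid, against 174 and 166 CPM in the control. Its log2 difference between the acids was 0.03, with an interval of −0.28 to 0.35. ARZ_11879_T1 followed with 0.04 (−0.29 to 0.36), and ARZ_3772_T1 with 0.07 (−0.23 to 0.38). ARZ_3772_T1 was at 72.1 and 71.6 CPM with acetic acid and 61.6 and 68.2 CPM with formic acid, against 19.2 and 24.2 CPM in the control. In all 3 genes the levels with the acids were far closer to each other than to the control. The share of all genes with an interval within 2-fold either way is not given here. The count of 9 is therefore a description only.

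The remaining genes of this kind were ARZ_2764_T1, ARZ_7786_T1, ARZ_18288_T1, ARZ_2370_T1, ARZ_13974_T1 and ARZ_10925_T1. ARZ_2764_T1 was at 582 and 502 CPM with acetic acid and 427 and 474 CPM with formic acid, against 137 and 99.2 CPM in the control. ARZ_7786_T1 was at 506 and 573 CPM with acetic acid and 445 and 454 CPM with formic acid, against 127 and 174 CPM in the control. In both genes the acetic acid libraries were the higher pair, but the log2 differences were 0.19 (−0.16 to 0.54) and 0.19 (−0.17 to 0.55). ARZ_18288_T1 was at 75.3 and 92.6 CPM with acetic acid and 107 and 88.7 CPM with formic acid, against 15.5 and 25.9 CPM in the control. ARZ_2370_T1 was at 130.0 and 165 CPM with acetic acid and 170.3 and 146 CPM with formic acid, against 44.9 and 44.7 CPM in the control. In these 2 genes the libraries of the acids were mixed. ARZ_13974_T1 was at 37.6 and 45.8 CPM with acetic acid and 38.8 and 42.3 CPM with formic acid, against 10.1 and 15.2 CPM in the control. ARZ_10925_T1 was at 68.3 and 92.6 CPM with acetic acid and 97.4 and 69.0 CPM with formic acid, against 28.6 and 26.3 CPM in the control. The libraries of the acids overlapped in both.

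ARZ_7065_T1 and ARZ_11544_T1 were not called either, but their intervals were wide. ARZ_7065_T1 was at 178 and 252 CPM with acetic acid and 99.3 and 42.7 CPM with formic acid, against 15.4 and 21.8 CPM in the control. Its acetic acid libraries were above both formic acid libraries, which differed between themselves by a ratio of 2.33. The log2 difference was 1.53 with an interval of 0.25 to 2.80 (edgeR quasi-likelihood adjusted p = 0.0889). DESeq2 gave an adjusted p of 0.0297. The gene was also called when either formic acid library was left out, but those fits drop the difference between these libraries and add no support. Over the 10 alternatives tried the log2 difference ran from 1.05 to 2.24. Against the control, its calls were lost without weak acid control replicate 1 or 2, with edgeR adjusted p-values of 0.0926 and 0.0722 for acetic acid and 0.225 and 0.150 for formic acid. The formic acid call was also lost with no filter on low counts (edgeR adjusted p = 0.0606). For ARZ_11544_T1 the log2 difference between the acids was 0.44, with an interval of −1.03 to 1.91. It was called when only the 2 acid groups were fitted (edgeR adjusted p = 0.0412). That fit leaves out the weak acid control libraries, which differed by a ratio of 2.70 for this gene, and adds no support.

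Outside the acids, the 17 genes split by compound. The rule limits the size of these ratios, since none may exceed the larger acid ratio, and the values are given as a description. With furfural 12 genes were called higher and 1 lower, beside 17.4% and 16.9% of all genes. With HMF 2 were called, ARZ_6716_T1 higher and ARZ_18288_T1 lower, beside 8.45% of all genes. With vanillin 1 was higher and 7 lower, beside 8.83% and 10.4%, and with syringaldehyde 2 were higher and 8 lower, beside 10.9% and 13.2%. With 4-hydroxybenzaldehyde 2 were called, ARZ_11879_T1 and ARZ_18288_T1, both lower, beside 8.11%. Median ratios on the log2 scale were 0.61 for furfural, 0.03 for HMF, −0.44 for vanillin, 0.17 for 4-hydroxybenzaldehyde and −0.66 for syringaldehyde, while those of all genes lay between −0.08 and 0.01. Several of these counts moved with 1 library. The furfural calls of ARZ_8740_T1, ARZ_2370_T1, ARZ_13974_T1 and ARZ_11544_T1 were each lost in some fit without 1 library. For ARZ_11544_T1 the furfural log2 difference of 0.82 was 0.41 without furan control replicate 2, and DESeq2 did not call this gene (DESeq2 adjusted p = 0.120). With vanillin 2 genes were called without vanillin replicate 1, 3 without vanillin replicate 2 and 2 without phenolic aldehyde control replicate 2. Without that control library 4 genes were called with syringaldehyde, all lower. With 4-hydroxybenzaldehyde no gene was called without its replicate 1, and 1 was called without its replicate 2 or without phenolic aldehyde control replicate 1. With HMF 4 genes were called without furan control replicate 2, and the call of ARZ_18288_T1 was lost without furan control replicate 1, HMF replicate 3 or HMF replicate 4 (edgeR adjusted p = 0.485, 0.0839 and 0.0810) and with only the 2 groups fitted (0.0581).

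**Figure D3:**
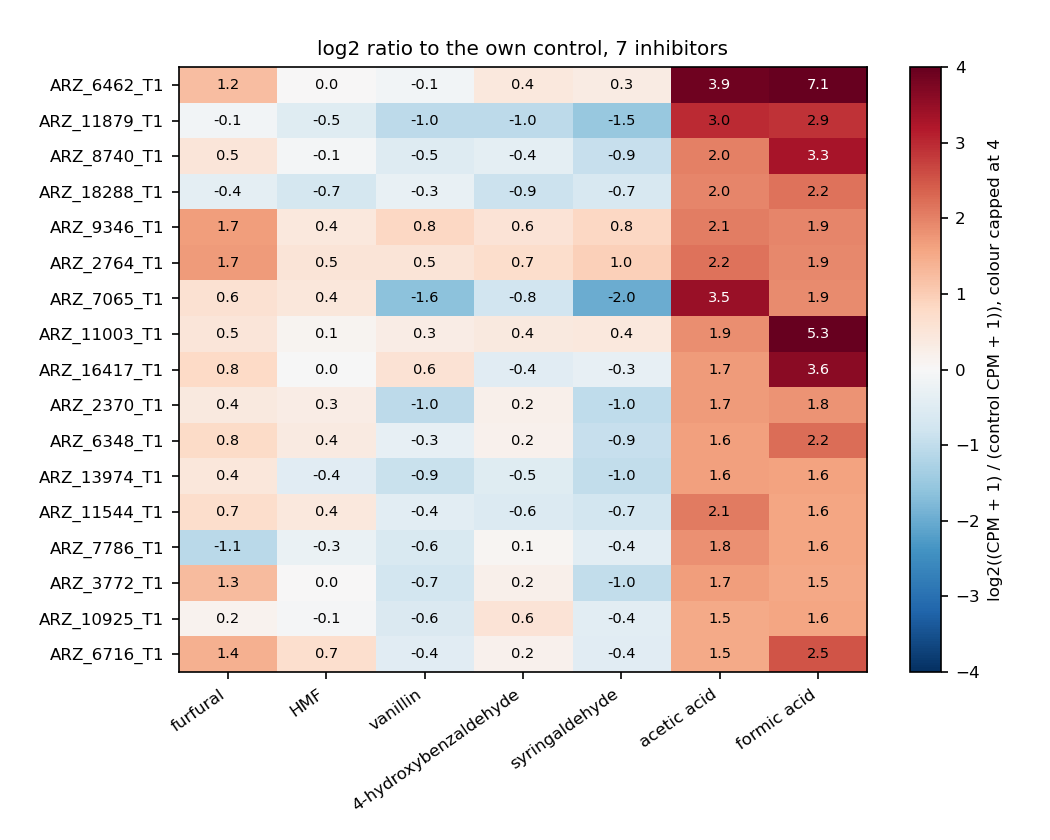
Log2 ratio of each of the 17 genes (rows) to the inhibitor's own control, for the 7 inhibitors (columns), with red above and blue below the control and the colour capped at 4. The acid columns are all at least 1.5 by the rule, the furfural column is above 0 for 14 genes, and the vanillin and syringaldehyde columns are below 0 for 13 genes each.

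Furfural and HMF were set against each other directly, a contrast the rule did not use. The rule did cap the size of both ratios to the furan control, and the libraries are the same. With furfural 9 of the 17 genes were higher than with HMF, beside 17.2% of all genes tested, and 1 was lower, which makes 10 called beside 34.2%. Of the 17 differences, 16 were above 0. The median log2 difference was 0.59, beside 0.00 over all genes. The compounds differ by the hydroxymethyl group of HMF, and both were given at the same mass per litre, so that the molar dose of furfural was higher.

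ARZ_6462_T1 had the largest difference of the called genes. It was at 3.97 and 3.99 CPM with furfural and 1.36 and 0.993 CPM with HMF, against 1.21 and 1.07 CPM in the furan control. The furfural libraries were above the rest, with a log2 difference from HMF of 1.80 ± 0.45 (edgeR quasi-likelihood adjusted p = 0.00349). ARZ_3772_T1 was at 99.1 and 139 CPM with furfural and 49.6 and 48.7 CPM with HMF, against 44.7 and 53.1 CPM in the furan control. The HMF libraries of this gene lay within the control range, and its log2 difference was 1.34 ± 0.16. ARZ_13974_T1 was at 37.6 and 37.2 CPM with furfural and 16.8 and 22.4 CPM with HMF, against 29.3 and 25.0 CPM in the furan control, so its HMF libraries were below the control. ARZ_6716_T1 was at 527 and 545 CPM with furfural and 293 and 344 CPM with HMF, against 191 and 205 CPM in the furan control. It was the only one of the 17 genes called higher with both furans. ARZ_7786_T1 went the other way, at 138 and 104 CPM with furfural and 182 and 245 CPM with HMF, against 284 and 228 CPM in the furan control. Its log2 difference was −0.76 ± 0.16 (edgeR quasi-likelihood adjusted p = 0.000792). This call was lost without furfural replicate 2 (adjusted p = 0.0596).

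Of the 6 genes that were lower with acetic acid than with formic acid, 5 were called higher with furfural than with HMF. The share over all genes tested was 17.2%. The exception was ARZ_11003_T1, with 3.88 and 3.10 CPM with furfural and 1.94 and 2.90 CPM with HMF, against 2.48 and 1.90 CPM in the furan control. Its log2 difference of 0.59 had a wide interval of −0.25 to 1.42, and its levels in the furan experiment were all below 4 CPM. Those of ARZ_6462_T1, 1 of the 5 genes, were also all below 4 CPM there. Among the 11 genes not called between the acids, 4 were called higher with furfural than with HMF, beside the same 17.2%. This split of the 17 genes was made after their values were seen and was not tested. The call of ARZ_2764_T1 between furfural and HMF was lost without HMF replicate 3 (edgeR adjusted p = 0.0724) or 4 (0.0502), and that of ARZ_6348_T1 without furfural replicate 2 (0.269) or HMF replicate 3 (0.0867).

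The phenolic aldehydes share a ring with a hydroxyl and an aldehyde group, to which vanillin adds a methoxy group and syringaldehyde a pair of them. With vanillin 2 of the 17 genes were higher and 5 lower than with 4-hydroxybenzaldehyde, beside 8.89% and 8.62% of all genes. With syringaldehyde 6 were called against 4-hydroxybenzaldehyde, all lower, beside 11.1% of all genes called lower. Between vanillin and syringaldehyde 1 gene was called, higher with vanillin, beside 4.74% of all genes. This last difference had an interval within 2-fold either way in 12 of the 17 genes, a count given without the share over all genes.

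ARZ_2370_T1 showed the largest fall of the 17 genes in both contrasts with 4-hydroxybenzaldehyde. It was at 19.1 and 20.2 CPM with vanillin, 15.9 and 23.9 CPM with syringaldehyde and 46.2 and 50.5 CPM with 4-hydroxybenzaldehyde, against 37.4 and 46.0 CPM in the phenolic aldehyde control. Vanillin and syringaldehyde shared a low range here that neither other group reached. The log2 differences from 4-hydroxybenzaldehyde were −1.34 ± 0.19 for vanillin and −1.31 ± 0.19 for syringaldehyde, and the adjusted p-values from edgeR's quasi-likelihood test were 0.000698 and 0.000540. ARZ_10925_T1 was at 32.8 and 29.8 CPM with vanillin, 36.4 and 33.7 CPM with syringaldehyde and 69.1 and 71.0 CPM with 4-hydroxybenzaldehyde, against 39.3 and 55.5 CPM in the control. ARZ_3772_T1 was at 28.3 and 35.7 CPM with vanillin, 25.2 and 29.0 CPM with syringaldehyde and 59.9 and 64.8 CPM with 4-hydroxybenzaldehyde, against 43.6 and 65.0 CPM in the control. Both genes were lower in the contrasts of vanillin and of syringaldehyde with 4-hydroxybenzaldehyde. ARZ_16417_T1 was higher with vanillin, at 102 and 148 CPM, than with syringaldehyde, at 60.4 and 73.3 CPM, or 4-hydroxybenzaldehyde, at 62.4 and 60.0 CPM, against 95.2 and 72.0 CPM in the control. The calls of ARZ_2370_T1 and ARZ_10925_T1 against 4-hydroxybenzaldehyde held when any library was left out, while that of ARZ_3772_T1 for vanillin was lost without vanillin replicate 1 (edgeR adjusted p = 0.0836) or 4-hydroxybenzaldehyde replicate 2 (0.0540). The vanillin call of ARZ_16417_T1 against 4-hydroxybenzaldehyde was lost without vanillin replicate 2 (edgeR adjusted p = 0.0709) or either library of 4-hydroxybenzaldehyde (0.0509 and 0.0578). The count of 7 for vanillin was 3 without vanillin replicate 1 or 2 or 4-hydroxybenzaldehyde replicate 1, and 2 without 4-hydroxybenzaldehyde replicate 2. The single call between vanillin and syringaldehyde, that of ARZ_16417_T1 (edgeR adjusted p = 0.0186), was lost without vanillin replicate 2 (0.189) or syringaldehyde replicate 1 (0.0506). The syringaldehyde calls of ARZ_8740_T1 and ARZ_6716_T1 were lost without 4-hydroxybenzaldehyde replicate 1 (0.137 and 0.151) or 2 (0.142 and 0.0836).

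**Figure D4:**
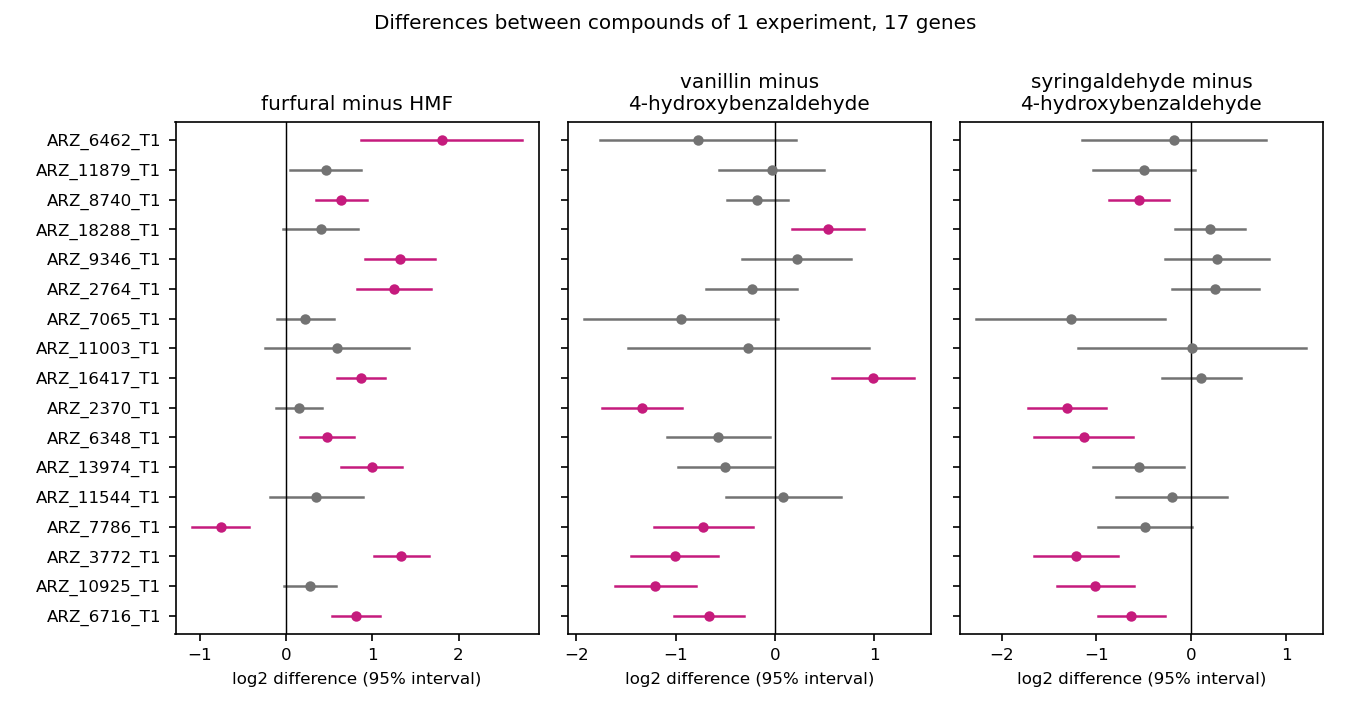
Log2 differences of the 17 genes for furfural minus HMF, vanillin minus 4-hydroxybenzaldehyde and syringaldehyde minus 4-hydroxybenzaldehyde, with 95% intervals, coloured where the adjusted p is under 0.05. In the first panel 9 coloured genes lie right of 0 and 1 left, and in the last panel all 6 coloured genes lie left of 0.

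ARZ_7065_T1 had the lowest ratio of the 17 genes with vanillin and with syringaldehyde. It was at 34.8 and 39.6 CPM with vanillin and 30.0 and 27.8 CPM with syringaldehyde, against 62.0 and 173 CPM in the phenolic aldehyde control. The control libraries differed widely, and leaving out control replicate 2 ended both calls (edgeR adjusted p = 0.283 and 0.0996). Leaving out either treated library ended them as well, with edgeR adjusted p-values of 0.0951 to 0.219, and fitting only the 2 groups ended the vanillin call (0.138). ARZ_11879_T1 was at 41.5 and 39.2 CPM with vanillin, 31.5 and 25.6 CPM with syringaldehyde and 29.4 and 50.9 CPM with 4-hydroxybenzaldehyde, against 98.6 and 69.5 CPM in the control. All 6 treated libraries of this gene were below both controls, whereas both acids were far above theirs. These directions rest on unlike controls, with means of 84.0 CPM (phenolic aldehyde) and 18.7 CPM (weak acid). The means with acetic and formic acid were 1.84 and 1.71 times the phenolic aldehyde control mean. The vanillin and 4-hydroxybenzaldehyde calls of ARZ_11879_T1 were each lost in some fit without 1 library.

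ARZ_9346_T1 and ARZ_2764_T1 had the steadiest ratio of levels of any pair of the 17 genes. The level of ARZ_9346_T1 was 1.04 to 1.79 times that of ARZ_2764_T1 over the 20 libraries, and the log2 ratio of their levels had an SD of 0.184. The lowest ratio was in syringaldehyde replicate 2, where ARZ_9346_T1 was lower than in replicate 1 (392 against 535 CPM) and ARZ_2764_T1 was higher (376 against 350.4 CPM). The next pair, ARZ_13974_T1 and ARZ_3772_T1, had an SD of 0.369. ARZ_9346_T1 was at 1026 and 1346 CPM with furfural, against 281 and 461 CPM in the furan control. ARZ_2764_T1 was at 792 and 1057 CPM with furfural, against 214 and 358 CPM in the furan control. These were the largest furfural ratios of the 17 genes, 1.67 and 1.69 on the log2 scale, beside 2.05 and 2.19 with acetic acid. They were also the only 2 genes called higher with syringaldehyde, and both calls were lost without phenolic aldehyde control replicate 2 (edgeR adjusted p = 0.236 and 0.0858), and that of ARZ_9346_T1 also without syringaldehyde replicate 1 (0.163) and with only the 2 groups fitted (0.0715). The sources used here do not say how reads matching more than 1 gene were assigned, and whether this pair shares reads was not tested.

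The weak acid control was often lower than the controls of the other experiments in these genes. The mean of the weak acid control was below the means of both other controls in 11 of the 17 genes, beside 36.9% of all genes tested. In 9 genes both weak acid control libraries were below all 4 other control libraries, beside 20.4%. The rule divides by the weak acid control, so low control levels were favoured by the choice of genes. The experiments were separate and each had 1 control group, so experiment and control level cannot be told apart.

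ARZ_7065_T1 gives the widest case. Its weak acid control was at 15.4 and 21.8 CPM, against 56.4 and 49.6 CPM in the furan control and 62.0 and 173 CPM in the phenolic aldehyde control. Of the formic acid libraries, at 99.3 and 42.7 CPM, 1 lay within the range of those other controls and 1 below it. ARZ_13974_T1 and ARZ_3772_T1 were similar, since their mean levels with the acids were 1.17 to 1.54 times the means of the furan or phenolic aldehyde controls. For ARZ_10925_T1, the lowest libraries of the acids (68.3 and 69.0 CPM) were below the higher furan control library (70.5 CPM). These 4 genes were the ones in which some library of the 6 controls reached the acid range.

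In the other 13 genes all 4 acid libraries were above all 6 controls, beside 4.18% of all genes tested. The margin was small in some of them and wide in others. For ARZ_7786_T1 the means with acetic and formic acid were 1.53 and 1.28 times the phenolic aldehyde control mean. For ARZ_2764_T1 they were 1.90 and 1.58 times the furan control mean. For ARZ_6462_T1 the ratio of mean levels was 36.2 with acetic acid and 343 with formic acid over the furan control, and 19.5 and 185 over the phenolic aldehyde control. For ARZ_11003_T1 these ratios were 5.94 and 67.6 over the furan control and 6.81 and 77.5 over the phenolic aldehyde control. ARZ_16417_T1 and ARZ_8740_T1 had nearly equal controls in the 3 experiments, with log2 ratios of the weak acid control to the furan control of 0.28 and 0.02 and to the phenolic aldehyde control of −0.06 and −0.15. In 10 of the 17 genes every acid library was above all 16 other libraries of the series, beside 1.66% of all genes. The rule asks for raised levels with both acids and a largest ratio for an acid. It therefore favours this count and that of 13 genes, and nothing is read from either.

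**Figure D5:**
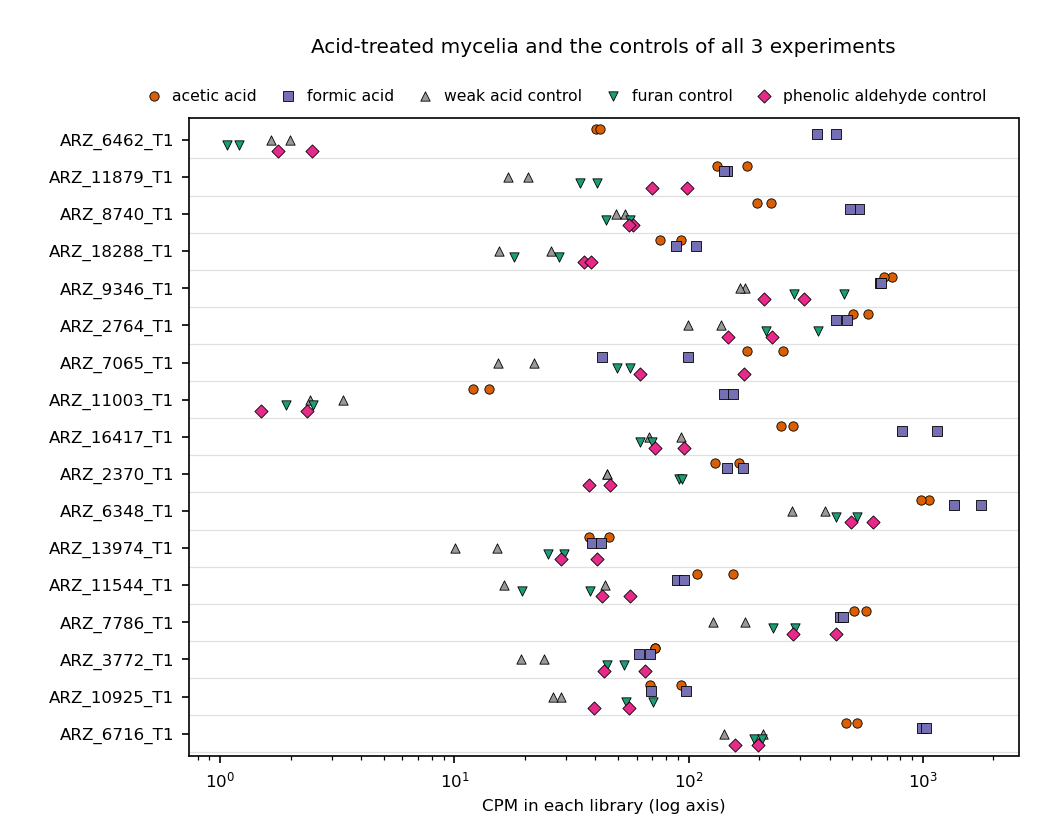
Levels of the 17 genes in CPM (log axis) in each library of acetic acid, formic acid and the controls of the weak acid, furan and phenolic aldehyde experiments. In 13 genes the 4 acid libraries lie to the right of all 6 control libraries, while in ARZ_7065_T1, ARZ_13974_T1, ARZ_3772_T1 and ARZ_10925_T1 they meet controls of another experiment.

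The numbers within the identifiers were also examined. Whether consecutive numbers mark neighbouring genes is not stated in the sources used here. None of the 17 genes had a number next to another of the 17. Of the 34 identifiers next in number, 2 had log2 ratios of at least 1 with acetic acid and with formic acid, which is 5.88%, beside 3.31% and 2.48% of all identifiers. They were ARZ_6463_T1, next to ARZ_6462_T1, and ARZ_11002_T1, next to ARZ_11003_T1, the genes with the largest formic acid ratios of the 17. ARZ_6463_T1 was at 4464 and 4383 CPM with acetic acid and 12799 and 13009 CPM with formic acid, against 1911 and 2490 CPM in the weak acid control. ARZ_11002_T1 was at 1712 and 1817 CPM with acetic acid and 5823 and 6553 CPM with formic acid, against 578 and 853 CPM in the control. In both, the acids and the control formed separate steps. They were the identifiers with the highest and next highest CPM in the formic acid libraries, and both were named after their values were seen. They missed the list because their acetic acid ratios were 1.01 and 1.30.

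At the edge of the rule, ARZ_6716_T1 (1.501) and ARZ_10925_T1 (1.52) had the smallest acetic acid ratios inside the threshold. ARZ_16480_T1 (1.496) and ARZ_4701_T1 (1.47) missed it with acetic acid by little, while their formic acid ratios were 1.88 and 2.16. ARZ_16480_T1 was at 68.0 and 76.7 CPM with acetic acid and 92.2 and 97.7 CPM with formic acid, against 26.9 and 23.1 CPM in the control, so a gene just outside looked much like those just inside. ARZ_6067_T1 reached 1.69 with acetic acid and 1.58 with formic acid and was left out because its ratio with syringaldehyde was larger in size, at −2.05. Leaving out a control library changed the list, which held 13 genes without weak acid control replicate 1 and 36 without replicate 2. Another 84 genes passed the threshold with formic acid only and 86 with acetic acid only, with their largest ratio for an acid.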

How the data were processed

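The authors deposited raw read counts per identifier, in 1 table for each of 3 experiments. Per the labels' protocols, Trizol was used for RNA extraction and an Ion Proton kit for the libraries. Names of an aligner and a read counter were not given in the sources used here. A pig assembly is named in the submitters' processing notes, Sscrofa 10.2, so the gene models behind the fungal identifiers are unknown. Levels are CPM from column sums. edgeR 4.0.16 (R 4.3.3) was fitted to each experiment with all its groups: filterByExpr (16714, 16398 and 17495 genes kept for weak acids, furans and phenolic aldehydes), TMM, two-sided quasi-likelihood tests with robust dispersions, and Benjamini-Hochberg adjustment over all genes tested, called under 0.05. Standard errors came from the F statistics. DESeq2 1.42.0, median-of-ratios scaling, other filters, 2-group fits, a replicate block and leaving out each library were alternatives; a lone library was assumed to vary like the other groups. The steps were tested on simulated data in which all genes had the same spread, so genes with a wider spread were not covered. The genes and the lists were chosen with earlier results of these data known. The naming rule took genes by the size of their ratios, the difference between acids, its interval and read depth; as only 17 genes met the rule, all were named. Molar doses came from rdkit 2024.09.2 and figures from matplotlib 3.10.9.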

Additional observations from a re-analysis of the deposited data

How the results depend on the processing

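The number of genes meeting the rule depended on its settings. It was 11 with a pseudocount of 5 CPM, 140 at a threshold of 1.0 and 3 at a threshold of 2.0, and leaving out 1 weak acid library gave 13 (weak acid control replicate 1) to 36 (weak acid control replicate 2), with 10 and 16 of the 17 among them. Chosen after seeing the data, other controls for the acids gave 66 (furan control, 7 of the 17 among them), 24 (phenolic aldehyde control, 5 of the 17) and 9 (all 6 control libraries, 6 of the 17). Counts of calls from altered fits, here and elsewhere in the text, have no share of all genes called beside them. Nothing particular to the 17 genes is read from these counts. Fits of only the 2 groups compared called 5 of the 17 genes with 4-hydroxybenzaldehyde and 1 with HMF, against 2 each. Leaving out 1 library gave 0 to 2 calls for 4-hydroxybenzaldehyde, 2 to 4 for HMF, 2 to 9 for vanillin, 4 to 11 for syringaldehyde, 2 to 3 for vanillin against 4-hydroxybenzaldehyde and 0 to 2 for vanillin against syringaldehyde; the cause was not tested. The counts between the acids (5 to 7), between furfural and HMF (8 to 11) and between syringaldehyde and 4-hydroxybenzaldehyde (4 to 7) moved by at most 1.5 times. The median difference between the acids ran from −0.37 without acetic acid replicate 2 to −0.0052 without replicate 1. Differences near 0 changed sign in 5 uncalled genes: leaving out 1 library gave −0.21 to 0.25 for ARZ_11879_T1, −0.021 to 0.079 for ARZ_9346_T1, −0.19 to 0.11 for ARZ_13974_T1, −0.013 to 0.16 for ARZ_3772_T1 and −0.37 to 0.14 for ARZ_10925_T1, and a minimum of 10 CPM gave 0.0061 for ARZ_13974_T1. The replicate numbers mark no stated pairing, and deviations of same-numbered weak acid libraries correlated at 0.01 to 0.17 over 11226 genes. With the replicate block 6 genes were called between the acids, as without it, and 5 in place of 7 between vanillin and 4-hydroxybenzaldehyde, and the formic acid call of ARZ_7065_T1 was lost (edgeR adjusted p = 0.0723). No paired analysis was possible with HMF because its replicates carry other numbers. With 2 libraries a group, differences within the intervals given cannot be shown.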
